A study of Homo sapiens with 24 samples.

Results

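BETd-246 is a small molecule made to destroy the BET proteins, and its effect on RNA was measured after 3 h at 100 nM in MDA-MB-231, an established human triple-negative breast cancer cell line. The account covers 6 of the 24 RNA-sequencing libraries of the series: 2 from cells given BETd-246 and 4 controls, of which 2 received DMSO, the vehicle, and 2 received thalidomide at 1000 nM, all collected after 3 h. The submitters used both kinds of control, and the libraries were chosen here by cell line and treatment label. Cells were in serum-containing medium, libraries came from total RNA depleted of ribosomal RNA, and the protocol marks no strand. The labels call the 2 libraries of each treatment independent biological replicates of the line.

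BET proteins, among them BRD2 and BRD3, bind acetylated histones through paired bromodomains and help RNA polymerase II leave its promoter-near pause, partly through the kinase P-TEFb. A degrader joins a BET ligand to a thalidomide-like group that binds cereblon, the substrate receptor of a ubiquitin ligase, so that the BET protein is tagged and destroyed by the proteasome. Thalidomide at the same time is a control for cereblon binding alone. Short-lived RNAs respond soonest to a block of transcription, and RNA made by other routes can take up a larger share of the library when many RNAs fall.

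Values are FPKM (fragments per kilobase of gene and per fixed number of mapped fragments), a share of the library and not an absolute amount. Changes are log2 differences between the BETd-246 libraries and the mean of the DMSO and thalidomide groups on log2(FPKM + 1), which understates the change of genes near 1 FPKM, and each fold given below is on that scale. The test was limma's moderated test over 14114 genes, two-sided, with Benjamini-Hochberg adjusted p-values; "rose", "fell" and "called" mean an adjusted p below 0.05, and "by at least 2-fold" adds a log2 change of 1 or more.

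The controls did not separate by kind: thalidomide against DMSO gave 0 called genes in limma, with 766 at an unadjusted p below 0.05. The 2 thalidomide libraries were the least alike of all control pairs (correlation 0.992), so the lack of calls need not mean that the kinds are alike. Thalidomide library 1 stood apart from the other controls. Its genes lay a median of 0.117 log2 units from the mean of the other 3 controls. By the same measure thalidomide library 2 was at 0.0796 and the DMSO libraries were at 0.048 and 0.0475. In library 1, 78 genes were off by at least 1 log2 unit, 75 of them above. PCBP2, an RNA-binding protein gene, was at 75.6 FPKM there and at 21.7, 21.6 and 21.1 FPKM in the other controls. Of those 78 genes 6 were called lower by at least 2-fold with BETd-246 and 0 higher. Thalidomide library 2 was the highest or lowest control for 58.9% of genes, against 75.8% for library 1 and 33.1% and 29.2% for the DMSO libraries. Without thalidomide library 2 the same comparison of thalidomide with DMSO gave 3200 called genes, and without library 1 it gave 0. The controls correlated with each other at 0.992 to 0.998 across genes, the BETd-246 libraries with each other at 0.998, and the treated with the control libraries at 0.974 to 0.98, where genes are not independent replicates. Estimated from the step size of low values in 83 to 118 genes, each library held 49000000 to 59500000 fragments. VIM, CD44 and EGFR, genes of the mesenchymal and basal state of this line, had control means of 891, 342 and 49.8 FPKM. CDH1 (E-cadherin) was at 0.149 to 0.198 FPKM and KRT5 and KRT14 (basal keratins) at 0 to 0.0115 FPKM. CDH1 does not stand for its list: the 14 measured luminal and epithelial markers summed to 486 to 560 FPKM in controls. Of the 10 immune markers listed, the 2 that were measured summed to 0.859 to 1.08 FPKM in controls and 0.721 to 0.871 FPKM with BETd-246.

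The response was broad, and the large changes were falls. BETd-246 changed 6788 genes (48.1% of those tested): 4702 fell (33.3%) and 2086 rose (14.8%). Counts in the gene lists below are to be read beside these shares. By at least 2-fold, 644 genes fell (4.56%) and 58 rose (0.411%). Both treated libraries lay below all 4 controls for 5369 genes (38%) and above them for 2803 (19.9%). The genes that fell by at least 2-fold supplied 1.68% to 1.73% of all FPKM in the controls and 0.508% to 0.513% after BETd-246. Without thalidomide library 1 there were 6702 called genes, 653 lower and 60 higher by at least 2-fold, and without library 2 there were 8181, 667 and 59. With the MDA-MB-231 libraries fitted alone, 4101 genes were called, 3525 lower and 576 higher, with 636 and 58 by at least 2-fold. The count of small rises thus depends on the libraries that supply the spread. The small rises also depend on how libraries are scaled. As deposited, 30.7% of the called genes were higher. Scaling each library to the same column total gave 9.88%, upper-quartile scaling 49.2%, median-of-ratios scaling 65% and quantile normalization 62.1%. The median change over all genes was -0.05 as deposited, -0.12 with column totals, 0.00 with the upper quartile, 0.08 with the median of ratios and 0.06 with quantiles. Among changes of at least 2-fold the share that was higher stayed between 6.67% and 19% over the same settings, with 8.26% as deposited.

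**Figure D1:**
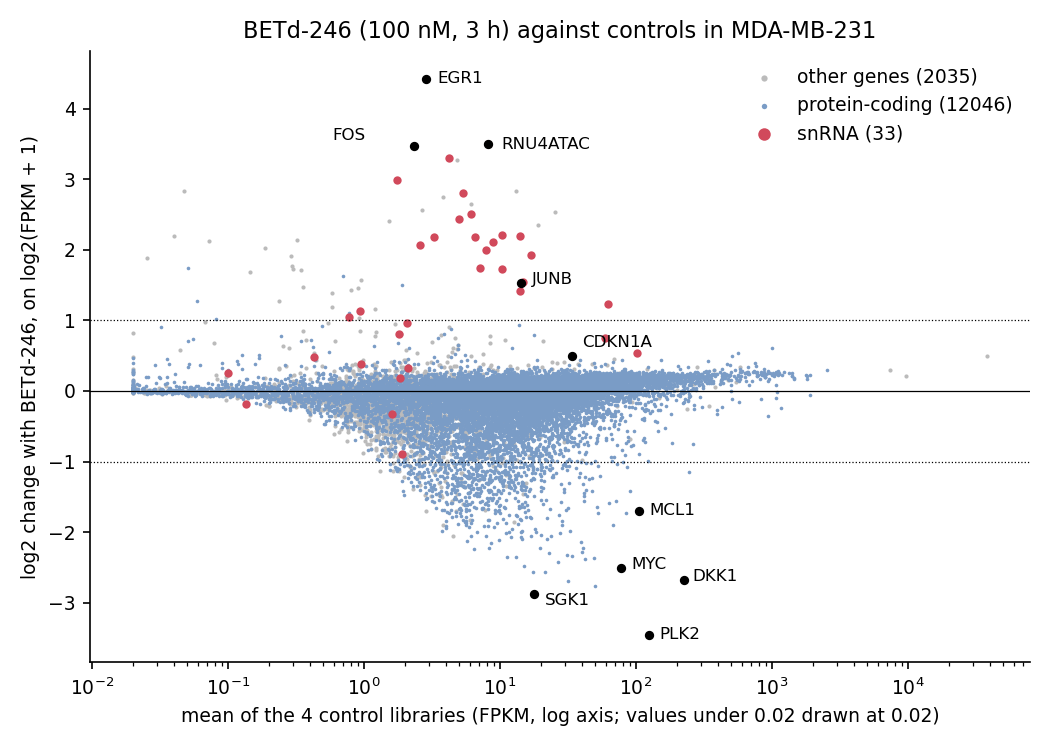
Change with BETd-246 (log2, vertical) against the mean of the 4 controls (FPKM, log axis) for each of 14114 genes in MDA-MB-231, with protein-coding genes in blue, snRNA genes in red and the rest in grey; dotted lines mark 2-fold. The points below -1 are mostly blue and lie largely between 1 and 100 FPKM, while most snRNA genes lie above 1 beside EGR1 and FOS.

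Sequences are shown for the genes at the centre of the rises, and for DKK1 as one of the 12 largest falls. Each line below gives the 250 bases before the RefSeq transcription start on GRCh38.p14, 5′ to 3′ on the gene's strand. Capitals mark the motifs found by letter search: the TATA box (TATAAA), the GC box of SP1 (GGGCGG), the core of the CREB site (TGACGT) and the CArG box, the A/T-rich core bound by serum response factor, each on either strand. Positions are counted backwards from the start site to the leftmost base of the match.
EGR1 (chr5:138465229-138465478, plus strand): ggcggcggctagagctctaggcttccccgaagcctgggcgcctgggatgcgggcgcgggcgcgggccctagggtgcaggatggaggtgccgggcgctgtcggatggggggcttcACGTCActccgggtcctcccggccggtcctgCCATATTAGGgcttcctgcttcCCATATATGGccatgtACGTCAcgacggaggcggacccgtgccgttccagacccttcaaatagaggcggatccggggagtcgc
FOS (chr14:75278578-75278827, plus strand): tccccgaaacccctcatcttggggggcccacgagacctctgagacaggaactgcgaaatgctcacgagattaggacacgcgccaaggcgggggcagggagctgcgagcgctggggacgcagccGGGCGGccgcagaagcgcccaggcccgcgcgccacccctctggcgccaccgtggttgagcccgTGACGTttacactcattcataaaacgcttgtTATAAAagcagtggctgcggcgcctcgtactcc
JUNB (chr19:12791236-12791485, plus strand): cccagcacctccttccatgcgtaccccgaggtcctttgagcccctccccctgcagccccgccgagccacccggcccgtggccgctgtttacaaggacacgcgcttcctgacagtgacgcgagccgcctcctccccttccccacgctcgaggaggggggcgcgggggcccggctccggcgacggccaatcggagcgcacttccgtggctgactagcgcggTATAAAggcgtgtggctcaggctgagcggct
DKK1 (chr10:52314031-52314280, plus strand): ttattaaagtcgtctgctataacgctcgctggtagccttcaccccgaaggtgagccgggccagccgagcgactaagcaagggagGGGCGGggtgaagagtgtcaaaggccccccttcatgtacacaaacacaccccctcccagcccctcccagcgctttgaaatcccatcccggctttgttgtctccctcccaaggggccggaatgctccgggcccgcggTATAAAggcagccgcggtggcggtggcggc

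In the EGR1 window a pair of CArG boxes began at -105 and -83, between copies of TGACGT on the other strand at -136 and -67. FOS had GGGCGG at -127, TGACGT at -64 and TATAAA at -33, JUNB had TATAAA at -31, and DKK1 had GGGCGG at -166 and TATAAA at -30. Over the 9297 measured protein-coding genes with such a window, searched on both strands, 0.99% held a CArG box, 4.95% TATAAA, 10.4% TGACGT and 68.9% GGGCGG. Among the 460 of them that fell by at least 2-fold the shares were 0.652%, 5.43%, 10.9% and 65.2%. The CCAAT box was in 42.6% of those windows against 35.4% of all, and CCGGAAGT, an ETS-type motif, in 10.9% against 7.49%. Among genes that rose by less than 2-fold the shares were 38.9% and 7.51%. The other motifs searched were TGANTCA (N is any base), in 4.57% against 3.67%, and CACGTG, in 7.39% against 8.93%. Motifs may overlap each other, only 5 of the 9 protein-coding genes that rose by at least 2-fold had a window, and a match is a description of the letters only.

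The 3 largest rises among protein-coding genes that reached 5 FPKM were of immediate-early genes, which growth factor signals switch on within minutes through factors already present in the cell. EGR1, a zinc finger transcription factor, read 3.03 and 2.45 FPKM in the DMSO libraries, 3.26 and 2.74 in the thalidomide libraries and 80.1 and 84.1 with BETd-246. Its log2 change was 4.43 ± 0.15 (SE; 21.5-fold, adjusted p = 4.79e-13), and no control came near a treated library. FOS, the partner of JUN in the AP-1 factor, went from 2.31, 2.12, 2.37 and 2.56 FPKM to 36.8 and 35.2 (log2 change 3.47 ± 0.18, adjusted p = 7.66e-11). JUNB, another AP-1 subunit, read 13.96, 13.75, 14.13 and 14.86 FPKM in the controls and 41.6 and 43.7 in the treated libraries, a log2 change of 1.52 ± 0.07. For both genes the groups were far apart and each pair of treated libraries was tight. IER2, an immediate-early nuclear protein, rose less, from 18.2, 17.9, 16.3 and 18.3 FPKM to 31.0 and 31.7 (0.79 ± 0.08). ARC rose from 0.671 to 0.71 FPKM in controls to 4.30 and 4.18 (1.63), and NR4A1, an orphan nuclear receptor, from 0.724 to 0.8291 to 2.76 and 2.88 (1.10); both stayed under 5 FPKM and were named after their values were seen.

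The AP-1 family moved in opposite directions. Of 9 measured subunits, 3 fell (33.3%, as over all genes) and 4 rose (44.4%, against 14.8%). FOSL1, the most abundant subunit per length here, fell from a control mean of 245 FPKM to 110 (-1.14), FOSL2 from 63.6 to 20.4 (-1.59) and JUN from 30.2 to 14.4 (-1.02). FOS and JUNB rose as given above, ATF3 rose from 4.88 to 7.91 FPKM (0.60) and FOSB from 0.781 to 1.22 (0.32). Summed over the 9 subunits, FPKM was 379 to 398 in the controls and 260.5 and 262.5 with BETd-246. Of 20 other immediate-early genes 13 fell and 6 rose, with a median change of -0.58. KLF6 fell by 2.43, ZFP36L1 by 2.01, TIPARP by 1.99 and IER5 by 1.61 on the log2 scale, while EGR1, ARC, NR4A1, IER2, ZFP36 (0.65) and KLF10 (0.44) rose. ZFP36 and ZFP36L1 encode related proteins that bind AU-rich RNA, and they went opposite ways.

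The steepest fall was that of PLK2, a polo-like kinase (ENSG00000145632.14; GRCh38 chr5:58453982-58460260, minus strand). PLK2 read 129, 133, 109 and 127 FPKM in the controls and 10.6 and 10.3 with BETd-246, a log2 change of -3.45 ± 0.05 (10.95-fold lower, adjusted p = 3.32e-16). SGK1, a kinase of the glucocorticoid and insulin response, fell from 18.9, 18.4, 15.6 and 17.8 FPKM to 1.52 and 1.57 (-2.87 ± 0.05). CITED2, a co-regulator that competes for CBP and p300, fell from 48.8, 50.1, 47.4 and 53.9 FPKM to 6.95 and 6.15 (-2.76 ± 0.09). In these genes the lowest control was several times the highest treated library. DKK1, a secreted Wnt inhibitor, read 236, 234, 194 and 240 FPKM in the controls and 34.0 and 34.6 with BETd-246 (-2.68 ± 0.06); the low control was thalidomide library 1. EDN1, which encodes endothelin-1, fell from 18.6, 18.3, 15.3 and 17.7 FPKM to 2.08 and 2.14 (-2.57). MYC fell from 78.5, 78.6, 69.1 and 81.4 FPKM to 12.8 and 12.4 (-2.51 ± 0.06, adjusted p = 3.28e-14).

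The remaining genes among the 12 largest falls were transcription factors, a stress gene, a growth factor and a phosphatase. TGIF1, a repressor of TGF-beta signalling, had a control mean of 31.7 FPKM and 4.08 and 4.06 with BETd-246 (-2.69). DDIT4, an inhibitor of mTORC1, fell from 21.4 to 2.90 and 2.69 (-2.56). ZNF217 fell from 15.04 to 1.84 and 1.86 (-2.48). For ZNF217 and KLF6 thalidomide library 1 was the highest control, at 18.4 against 13.1 to 14.5 FPKM and at 33.0 against 22.5 to 25.9 FPKM. BMP4, a secreted growth factor, fell from 41.9 to 7.49 and 7.04 (-2.38), and DUSP4 from 49.2 to 9.16 and 8.33 (-2.37). Each of these 12 genes stayed called with at least a 2-fold fall under every alternative tried. Highly expressed genes rarely fell that far: of 719 protein-coding genes with control means of 100 FPKM or more, 4 fell by at least 2-fold (0.556%), namely PLK2, DKK1, MCL1 and FOSL1, named after their values were seen. Among 4225 protein-coding genes of 5 to 20 FPKM, 345 did (8.17%). The share was 4.13% under 5 FPKM and 2.44% at 20 to 100 FPKM, against 4.86% of all protein-coding genes.

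**Figure D2:**
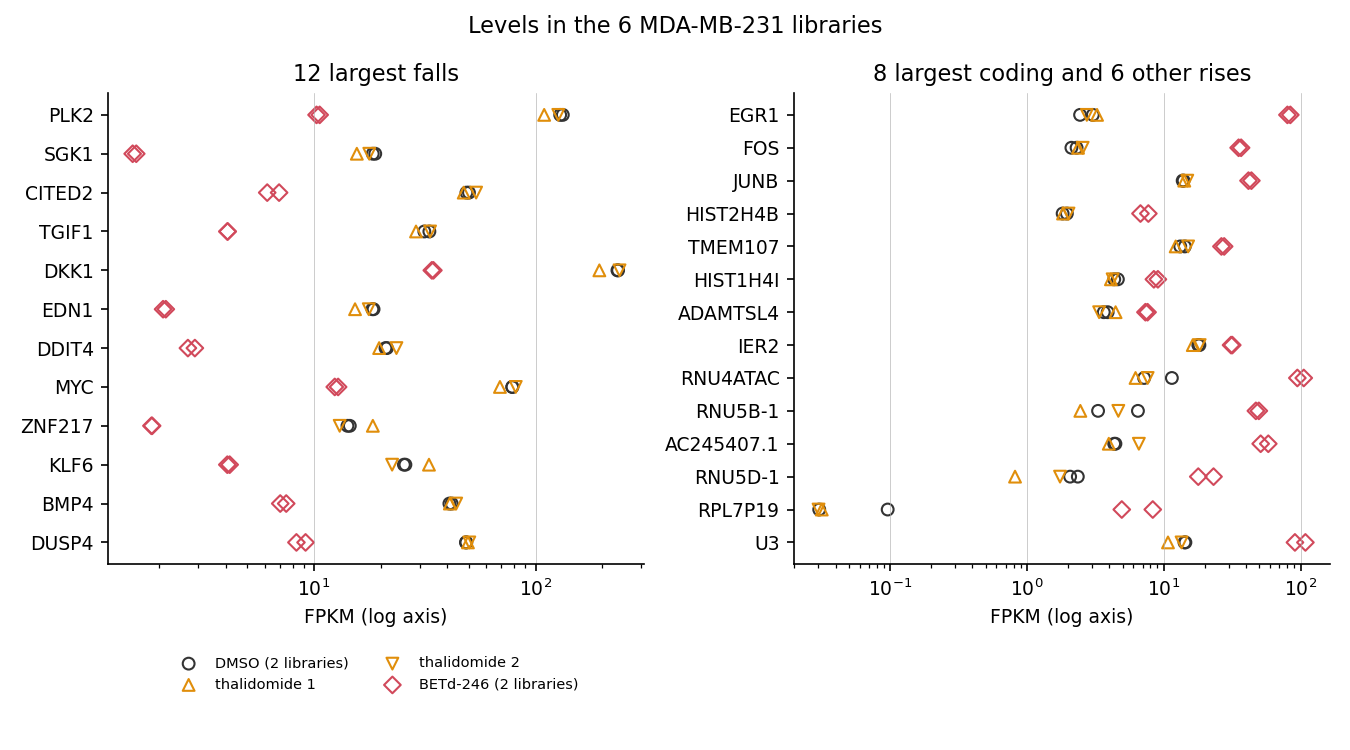
FPKM (log axis) of the 12 largest falls, left, and of the 8 largest protein-coding and 6 other rises, right, with 1 symbol for each of the 6 MDA-MB-231 libraries: circles for DMSO, triangles for thalidomide and diamonds for BETd-246. In every row the diamonds are separate from all 4 control symbols. Thalidomide library 1 is the control farthest from the rest for several falls, among them PLK2, SGK1, DKK1, EDN1, MYC, ZNF217 and KLF6.

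Feedback brakes on growth factor signalling fell as a group. MAP kinase phosphatases (DUSP) remove the activating phosphates from MAP kinases, and Sprouty proteins dampen signalling from receptors to them. Of 15 measured genes 14 fell and 0 rose, against 33.3% lower over all genes, and 7 fell by at least 2-fold; the median change was -0.997, beside -0.05 for all genes. SPRY2 fell from 38.4 to 41.5 FPKM in controls to 7.91 and 6.98 (-2.29), DUSP5 from 22.7 to 25.3 to 4.95 in both treated libraries (-2.06), DUSP10 from 17.8 to 21.3 to 4.244 and 4.003 (-2.04) and DUSP6, the phosphatase specific for ERK, by 1.42 on the log2 scale. The summed FPKM of the list was 410 to 443 in the controls and 181 and 180 with BETd-246. DUSP2 was the gene not called (-0.12). Among 27 receptor tyrosine kinases and ligands, 10 fell (37%) and 3 rose (11.1%) with a median of -0.06, near the 33.3% and 14.8% over all genes. The 4 largest falls were of ligands, EFNA1 (-1.34), HBEGF (-1.09), VEGFA (-1.02) and EFNB2 (-0.98), while the receptor EGFR (45.4 to 58.4 FPKM in controls, 47.9 and 47.0 treated) was not called and DDR2, a collagen receptor, rose (0.71).

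Of 23 genes of TGF-beta and BMP signalling and its feedback 18 fell and 1 rose (median -0.44). Alongside TGIF1 and BMP4, ID1, a target of BMP signals, fell from 77.7 to 91.6 FPKM in controls to 24.4 and 24.7 (-1.73), and SMAD7, the inhibitory SMAD, from 4.11 to 4.56 to 0.594 and 0.957 (-1.59). The receptor gene TGFBR1 (0.00) and the ligand gene TGFB1 (0.02) were not called. Of 10 mesenchymal transcription factor genes 6 fell and 0 rose. SNAI2, a repressor of epithelial genes, fell from 13.3, 13.2, 12.6 and 12.9 FPKM to 1.79 and 1.69 (-2.35 ± 0.04, adjusted p = 3.7e-16), whereas ZEB1 (0.05) was not called and TWIST1 was listed at 0 in all 4 controls. Of 28 invasion and matrix genes 4 fell and 8 rose, a balance that was 8 and 2 with column totals and 3 and 17 with the median of ratios; HAS2, a hyaluronan synthase, was the one that fell by at least 2-fold, from 6.38 to 7.79 FPKM to 1.73 and 1.68 (-1.58).

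Targets of YAP and TEAD, which sense cell density, fell in 14 of 22 cases and rose in 3 (median -0.47). NUAK2 fell from 5.83 to 6.39 FPKM to 0.887 and 1.01 (-1.88) and GADD45A by 1.36 on the log2 scale, and CYR61 fell (-0.90). CTGF, a common reporter of this pathway, was called higher (0.40, adjusted p = 0.0432), but its groups overlapped: thalidomide library 1 held 73.7 FPKM, against 38.8 to 42.1 in the other controls and 58.1 and 66.9 with BETd-246. In the NF-kB list 15 of 24 fell and 2 rose. LIF (-1.45), IL6 (-1.26) and BIRC3 (-1.23) were the members that fell by at least 2-fold, and CXCL1 (0.38) and NFKBIA (0.30), the inhibitor IkB-alpha, rose. IRF1 led the interferon list, from 21.2 to 23 FPKM to 4.50 and 4.26 (-2.10), in a list where 7 of 21 fell, the 33.3% seen over all genes, and 4 rose. Median-of-ratios scaling gave 3 lower and 11 higher, and quantile normalization 4 and 10. Of 20 Wnt genes 10 fell (50%) and 1 rose (5%), with DKK1 and the receptor FZD7 (-1.20) ahead of AXIN1 (-0.66). LFNG, a Notch-modifying enzyme, fell by 1.33 on the log2 scale. The Notch list of 14 had 6 lower (42.9%) and 1 higher (7.14%). Of 11 glucocorticoid-responsive genes 8 fell, among them SGK1 and CEBPD (-1.20), and the receptor gene NR3C1 fell by 0.38.

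Of 20 genes that answer amino acid shortage or unfolded proteins 13 fell and 1 rose, 8 by at least 2-fold, with a median of -0.74. Besides DDIT4 these were the transcription factors CEBPB (-1.40), XBP1 (-1.22) and DDIT3 (-1.11), with CHAC1 (-1.17), HERPUD1 (-1.08), TRIB3 (-1.06) and DNAJB9 (-1.03), while the chaperone HSPA5 (0.01) was not called. Of 16 heat shock genes 4 fell and 5 rose, none by 2-fold, and column totals gave 6 and 1. Of 19 p53 target genes 11 fell and 1 rose, or 9 and 6 with either median-of-ratios scaling or quantile normalization. PLK2 was the largest fall, AEN, a nuclease, fell from 21.4 to 24.3 FPKM to 6.68 and 6.72 (-1.67), and the one riser as deposited was CDKN1A, which encodes the CDK inhibitor p21. CDKN1A read 32.5, 32.1, 32.8 and 37.2 FPKM in the controls and 47.3 and 47.8 with BETd-246 (0.49 ± 0.06, adjusted p = 2.94e-06). CDKN1B, the p27 gene, fell by 0.62.

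Of 10 measured survival genes of the BCL2 and IAP families 9 fell and 0 rose, with 4 lower and 1 higher under median-of-ratios scaling and 5 lower under quantile normalization. MCL1, a short-lived guard against apoptosis, read 107, 105, 100 and 109 FPKM in the controls and 31.4 and 32.1 with BETd-246 (-1.70 ± 0.05, adjusted p = 3.84e-14), and BIRC3 fell from 23.1 to 24.8 to 9.63 and 9.88. BCL2L1 (-0.28), XIAP (-0.23) and BCL2 (-0.18) fell by little, and BIRC5 (0.06) was not called. Of 21 pro-apoptotic genes 11 fell and 1 rose. FADD, the adaptor of death receptors, fell from 13.8 to 14.1 FPKM to 3.17 and 3.30 (-1.81), ahead of BBC3 (-0.82) and BCL2L11 (-0.55), which encode PUMA and BIM.

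Of 17 G1 genes 10 fell and 2 rose, 4 by at least 2-fold: E2F8 (-1.60), CDC25A (-1.54), E2F2 (-1.12) and E2F7 (-1.04), where CDC25A is the phosphatase that activates CDK2. CCND1 (-0.06) and CDK6 (-0.04) were not called. Among 28 genes of S phase and mitosis 12 were called lower (42.9%) and 1 higher (3.57%), none by 2-fold. Median-of-ratios scaling gave 3 and 11, and AURKA fell most as deposited (-0.57). Of 26 homologous recombination genes 13 fell and 1 rose, with PALB2 at -0.88, BARD1 at -0.79 and BRCA2 at -0.49, while BRCA1 (-0.06) was not called. The medians of the latter lists (-0.11 and -0.14) turned to 0.09 and 0.04 with median-of-ratios scaling, and that of the G1 list from -0.18 to 0.01.

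Of 8 measured genes of the BET family and the cereblon ligase, 3 fell (37.5%, near the 33.3% over all genes) and 0 rose. The median of this list was -0.06, and 0 fell by at least 2-fold. BRD2 fell from 93.3, 90.8, 92.8 and 93.4 FPKM to 53.1 and 54.4 (-0.77 ± 0.04, adjusted p = 9.22e-11). BRD3 (-0.26) and CRBN, the cereblon gene (-0.14), were called, but neither call held under every setting, and with quantile normalization both changes turned to 0.05 and 0.04. RNA does not show how much BET protein was left. In the P-TEFb and 7SK list 11 of 19 fell and 1 rose. MEPCE, which caps 7SK RNA, fell from 25.8 to 28.5 FPKM to 7.19 and 7.33 (-1.76), ELL by 1.36, CCNT1, the cyclin of P-TEFb, by 1.31 and HEXIM1, its inhibitor, by 1.26 on the log2 scale, from 15.9 to 17.9 FPKM to 6.44 and 6.39. The kinase gene CDK9 fell by 0.58. In the MYC and MAX network 6 of 11 fell and 0 rose; after MYC came the antagonist MXD1 (-0.85) and MGA (-0.70), and MAX itself was not called (-0.11). KLF transcription factors fell in 9 of 12 cases, with KLF6, KLF4 (-1.67), KLF11 (-1.41), KLF5 (-1.29) and KLF3 (-1.28) below -1, and only KLF10 rose.

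Most zinc finger genes fell. The pattern of symbols (ZNF or ZBTB followed by a digit) was chosen after values were seen, so the counts are a description. Of 470 such protein-coding genes, 419 fell (89.1%), 144 by at least 2-fold (30.6%), and 0 rose; among the other 11576 protein-coding genes 31.8% fell and 3.81% fell by at least 2-fold. The median change was -0.70 against -0.03. ZNF12 fell from 8.19, 8.44, 8.70 and 8.92 FPKM to 1.135 and 1.162 (-2.15), ZNF281, a repressor, from 14.41, 13.46, 14.74 and 14.04 to 2.77 and 2.43 (-2.08). ZNF792 fell by 2.12. Counts of falls in the group were 351 to 429 over the scalings tried, and up to 17 members rose. Falls of at least 2-fold numbered 69 with quantile normalization and 230 with a pseudocount of 0.1. Protein-coding genes that fell by at least 2-fold had a median of 4 exons in the longest transcript and spanned 16 kb, against 8 exons and 33.2 kb for all 12046. The 144 zinc finger genes are among these 585 genes, and the structure was not computed without them. Of 425 single-exon protein-coding genes 63 fell by at least 2-fold (14.8%), against 4.49% of those with more exons. Single-exon genes also rose more often, 86 of them (20.2%) against 15.9%, and 2 rose by at least 2-fold (0.471% against 0.0602%).

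**Figure D3:**
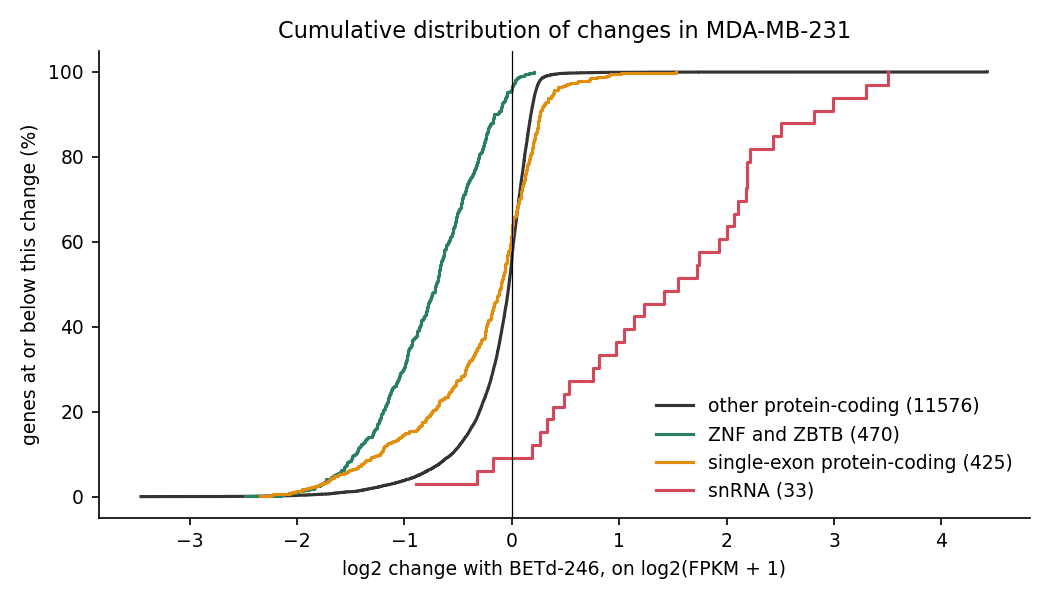
Share of genes (%, vertical) at or below each log2 change with BETd-246 (horizontal) for 470 ZNF and ZBTB genes, 425 single-exon protein-coding genes, 33 snRNA genes and the other 11576 protein-coding genes in MDA-MB-231. The zinc finger curve lies left of the others with a median of -0.70, and the snRNA curve lies to the right with a median of 1.54.

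Many genes for abundant RNAs rose by small amounts, and the stability of their RNAs was not measured. Of 32 cytosolic ribosomal protein genes 31 rose and 0 fell, with changes of 0.16 to 0.32 and a median of 0.24; RPS2 went from 305, 324, 304 and 326 FPKM to 377 and 385. Of 28 nuclear genes of the respiratory chain 24 rose and 0 fell (median 0.19), and of 15 mitochondrially encoded genes 7 rose and 0 fell (median 0.36). That count was 15 without thalidomide library 1, 4 without library 2 and 1 against DMSO alone, 4 without DMSO library 1, and 4 and 3 without BETd-246 library 1 and 2. Mitochondrial RNA was 9.79% to 13.99% of summed FPKM in the controls and 14.9% and 15.1% with BETd-246, the lowest control being thalidomide library 2. GAPDH (0.25), ACTB (0.21) and PPIA (0.27), often used as references, rose, and TBP fell (-0.54). Of 719 protein-coding genes of 100 FPKM or more 446 rose (62%) with a median of 0.17. These rises moved with the scaling: the ribosomal list kept 8 of 32 risers with quantile normalization (median 0.05) and 23 with column totals (0.14), and with the MDA-MB-231 libraries fitted alone 1 was called. Of 21 lysosome and autophagy genes 9 rose by up to 0.25, and the transcription factor gene TFEB fell (-0.79).

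The largest class of strong rises was spliceosomal small nuclear RNA (snRNA), the RNA part of the machine that removes introns; polymerase II makes U1, U2, U4, U5 and the minor forms U4atac, U11 and U12, and polymerase III makes U6 and U6atac. RNU4ATAC, the largest rise in this class, is shown as read from GENCODE 29 on GRCh38. Capitals mark the stretch AATTTTTG, which resembles the Sm protein-binding site of snRNAs.
RNU4ATAC (chr2:121530881-121531007, plus strand): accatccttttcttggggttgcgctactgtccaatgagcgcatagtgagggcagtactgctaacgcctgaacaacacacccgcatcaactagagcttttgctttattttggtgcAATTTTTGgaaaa

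RNU4ATAC, of the minor spliceosome, read 11.5, 7.19, 6.22 and 7.63 FPKM in the controls and 94.7 and 105 with BETd-246 (log2 change 3.50 ± 0.14, adjusted p = 2.93e-12). RNU5B-1 went from 3.31, 6.48, 2.46 and 4.66 FPKM to 49.5 and 47.1 (3.30 ± 0.24). RNU5D-1 rose from 2.07, 2.36, 0.82 and 1.75 FPKM to 17.9 and 23.1 (2.99). For all of these the treated libraries were several times the highest control, and snRNA copies alike enough to share short reads leave single values uncertain. Of the 33 genes annotated as snRNA 25 rose and 1 fell, with 21 up by at least 2-fold and a median of 1.54. Under every alternative 22 to 27 of them rose. Of 25 spliceosomal snRNA genes listed by symbol, 11 were measured, and 9 of these rose. Symbols without values included RNU1-1, RNU2-1, RNU6-1 and RNU11, so the rises do not cover these genes of U1, U2, U6 and U11. RNU12, annotated as lincRNA, rose from 2.47 to 2.99 FPKM to 21.6 and 19.4 (2.56), whereas RNU4-2 was at 90.5 to 112 FPKM in controls and 166 and 129 treated and was not called (0.54, adjusted p = 0.212). RNU6ATAC was called higher (0.97, adjusted p = 0.00635) with groups that overlapped, from 0.924 to 3.50 FPKM in controls to 3.30 and 6.58.

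Other short RNAs did not follow as a class. Of 13 further small or polymerase III RNAs 2 rose and 0 fell: SNORD3B-1, a U3 copy (1.69), and VTRNA1-3 (0.52). RN7SK, the 7SK RNA, was at 5765 to 8210 FPKM in controls and 9384 and 8621 treated (0.30, adjusted p = 0.145). Of 164 snoRNA genes 39 fell (23.8%) and 5 rose (3.05%), both below the 33.3% and 14.8% over all genes. By at least 2-fold 12 fell and 3 rose (7.32% and 1.83%, against 4.56% and 0.411% over all genes). A gene named U3 on chromosome 17, inside TEX14, rose from 14.4, 14.2, 10.7 and 13.5 FPKM to 90.9 and 108 (2.83), and a second gene of that name did not (0.13). Of 18 snoRNA host genes 10 fell and 2 rose, with SNHG15 at -0.98 and GAS5 at -0.26. The column used to purify RNA recovers short RNAs poorly, and its part in these values was not tested.

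Of the 47 annotated non-coding genes that rose by at least 2-fold, 31 (66%) overlap another gene, against 74.6% of all 1905. TMEM107, which encodes a protein of the cilium, rose from 13.2, 14.3, 12.2 and 15.1 FPKM to 27.6 and 26.4 (0.93). It overlaps SNORD118, the U8 RNA gene, on the same strand, and reads from the shared stretch cannot be told apart. JUNB, HIST2H4B, IER2 and RNU4ATAC overlap genes on the opposite strand, where reads that keep no strand cannot be told apart either. RNU4ATAC also overlaps AC012447.1 on the same strand, so the limit given for TMEM107 holds for it too. RPL7P19, a ribosomal protein pseudogene, was at 0.0962, 0.0304, 0.0317 and 0.0301 FPKM in the controls and 4.94 and 8.32 with BETd-246 (2.83). It begins 4429 bases beyond the end of EGR1 on the same strand of chromosome 5. Of the same 47 genes, 7 (14.9%) began within 10 kb beyond the end of another gene that rose by at least 2-fold. Among all 1905 it was 10 (0.525%), which include these 7. RNU5B-1 was one of the 7, and it begins 8511 bases beyond RNU5A-1. Related genes that lie close together can rise together, and the cause was not tested. A protein-coding gene was the neighbour in 2 of the 7, EGR1 for RPL7P19 and HIST2H4B for RP11-196G18.22, both chosen after values were seen. ADAMTSL4, which encodes a secreted matrix protein, rose from 3.90, 3.65, 4.45 and 3.37 FPKM to 7.62 and 7.35 (0.81) and overlaps genes on both strands. AC245407.1, with no annotation entry, rose from 4.35, 4.44, 3.97 and 6.58 FPKM to 58.1 and 51.1 (3.27). Histone genes HIST2H4B (1.83 to 2.02 FPKM in controls, 6.76 and 7.72 treated, 1.5) and HIST1H4I (4.11 to 4.62 to 9.07 and 8.47, 0.87) were among the coding rises, and their RNAs have near-identical copies. Of the 58 genes that rose by at least 2-fold, 26 had control means under 1 FPKM and 9 were protein-coding; the others among these 9 were HIST1H1A (1.01), FGF18 (1.27) and FCGR1B (1.74), all under 5 FPKM and named after their values were seen.

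**Figure D4:**
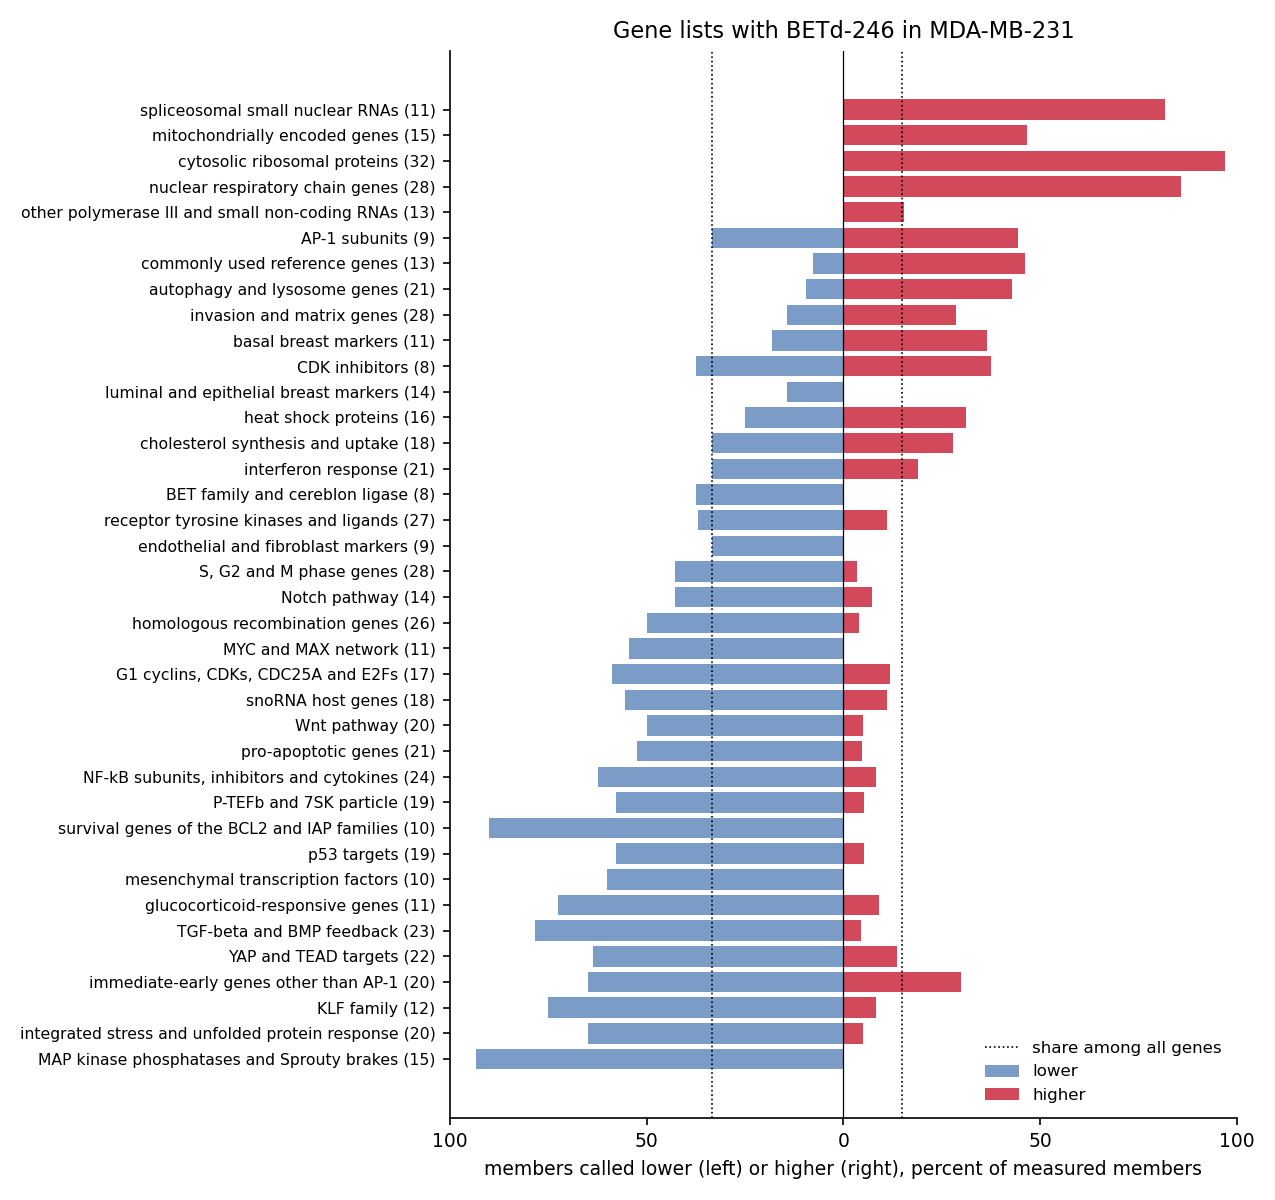
Percent of measured members that fell (blue, left) or rose (red, right) with BETd-246 in MDA-MB-231 for each gene list with a changed member, with the number measured in brackets and dotted lines at the shares over all genes (33.3% lower, 14.8% higher). Kinase phosphatases and survival genes reach 93.3% and 90% lower, and ribosomal protein genes 96.9% higher.

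Many of the falls were also seen in the other triple-negative lines of the series, MDA-MB-157 and MDA-MB-468, each with its own 2 BETd-246 and 4 control libraries. Of the 644 genes that fell by at least 2-fold in MDA-MB-231, 416 (64.6%) did so in MDA-MB-157, where they were 70.2% of its list, and 507 (78.7%) in MDA-MB-468, where they were 58.8%. Of the 58 that rose by at least 2-fold, 34 (58.6%) and 38 (65.5%) did so there, making up 94.4% and 80.9% of those lists. The change itself differed from MDA-MB-157 for 1587 genes (11.2%) and from MDA-MB-468 for 1873 (13.3%) in limma's test of the difference. Against both lines at once, the change was more negative in MDA-MB-231 for 293 genes (2.08%) and more positive for 360 (2.55%). Of the 360, 76 were called higher and 184 called lower in MDA-MB-231 itself. Without thalidomide library 2 of MDA-MB-231 the counts of differing genes were 3119 and 3258, and without library 1 they were 1876 and 2305.

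The 4 genes named for falling more in MDA-MB-231 than in both other lines were higher in its controls. CD274, which encodes the immune checkpoint ligand PD-L1, read 13.6, 13.6, 11.8 and 14.7 FPKM in the controls and 3.19 and 3.24 with BETd-246 (-1.77 ± 0.06); control means were 0.275 FPKM in MDA-MB-157 and 0.471 in MDA-MB-468, with changes of -0.19 and -0.34 there. CXCR4, a chemokine receptor tied to metastasis of this line, fell from 12.98, 12.97, 10.3 and 12.4 FPKM to 2.26 and 2.52 (-1.95 ± 0.07), against -0.77 and 0.00. The control means of CXCR4 were 1.93 FPKM in MDA-MB-157 and 0.00479 in MDA-MB-468. CCDC8 fell from 5.35, 5.36, 5.34 and 5.60 FPKM to 1.58 and 1.68 (-1.29), where the others had control means of 0.162 and 0.0568 FPKM, and RP4-555D20.1, a transcript on chromosome 3 still to be experimentally checked, fell by 1.35. With 1 FPKM added to each value, a gene near 0 has little room to fall, and the differences in change cannot be told apart from those in level.

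EGR1 and IER2 differed upwards. EGR1 rose by 4.43 in MDA-MB-231, 3.20 in MDA-MB-157 and 1.93 in MDA-MB-468, with control means of 2.87, 4.14 and 6.95 FPKM, and the differences of 1.23 ± 0.21 and 2.50 ± 0.21 were called (adjusted p = 0.000949 and 3.74e-07). IER2 rose by 0.79 in MDA-MB-231 and fell by 0.65 and 0.61 in the other lines. JUNB rose by 1.52, against 0.60 in MDA-MB-157 and 0.05 in MDA-MB-468, whereas the FOS differences (0.12 and 0.66) were not called. ID3, an inhibitor of bHLH factors, fell by 0.77 here, from 25.05, 24.62, 23.74 and 26.07 FPKM to 14.28 and 13.97, and by 2.44 and 2.81 in the others, which held 304 and 57.4 FPKM in controls. One U1 gene copy on chromosome 1 (chr1:144560666-144560829, minus strand) rose from 6.40, 6.32, 4.98 and 6.76 FPKM to 39.8 and 38.8 (2.51) and by 0.10 and 0.05 in the others; 6 genes carry this name, their copies are near-identical, and the difference from MDA-MB-157 had an adjusted p of 0.0783 with a pseudocount of 0.1. On the log2(FPKM + 1) scale PLK2, SGK1, CITED2, EDN1 and DUSP4 fell further in MDA-MB-231 than in both other lines, and BRD2 fell less. EDN1 had a control mean of 1.91 FPKM in MDA-MB-157 against 17.5 here, so the limit for genes near 0 holds for it too. SGK1 and DUSP4 had treated means of 0.749 and 2.92 FPKM in MDA-MB-468, against 1.55 and 8.74 here. The added 1 FPKM therefore shrinks their falls more in MDA-MB-468, and part of those differences comes from the scale.

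**Figure D5:**
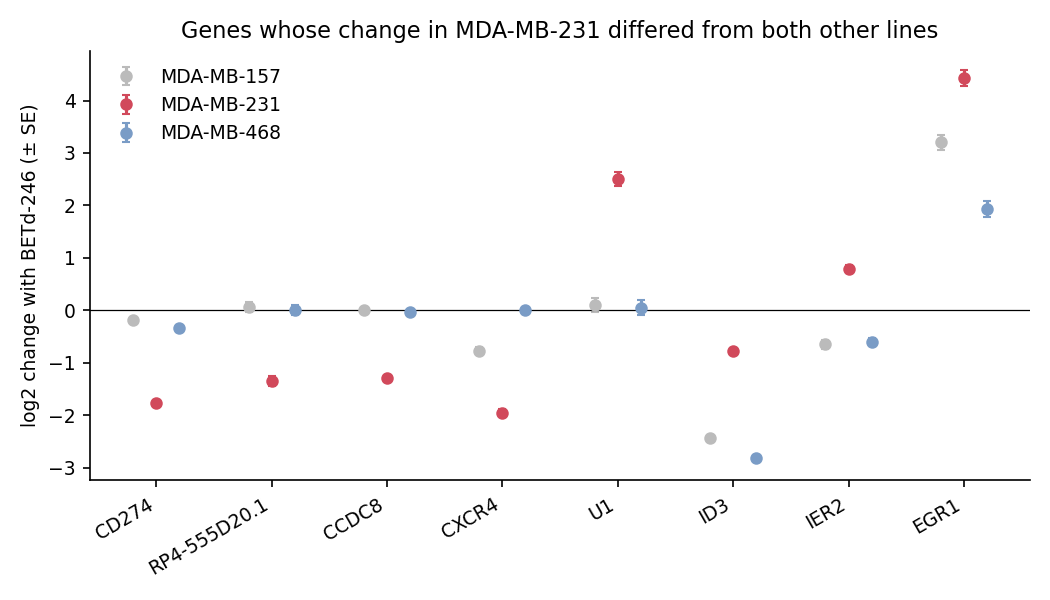
Log2 change with BETd-246 ± SE (vertical) in MDA-MB-157 (grey), MDA-MB-231 (red) and MDA-MB-468 (blue) for the 8 genes named for a difference from both other lines. CD274, RP4-555D20.1, CCDC8 and CXCR4 are lowest in red, U1, IER2 and EGR1 are highest in red, and ID3 is negative in each line with red nearest to 0.

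The same controls served for BETi-211, a BET inhibitor given at 1000 nM and not at 100 nM, so the values are set side by side only. CDKN1A changed by 0.49 with BETd-246 and 2.55 with BETi-211, HEXIM1 by -1.26 and 0.64, BRD2 by -0.77 and 1.201, and MCL1 by -1.70 and 0.25. DDIT4 changed by -2.56 and 0.22, PLK2 by -3.45 and -0.98, DKK1 by -2.68 and -2.30, JUNB by 1.52 and 1.61 and HIST2H4B by 1.5 and 2.60.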

How the data were processed

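Libraries were made from ribosomal-RNA-depleted total RNA with a kit that keeps no strand, per the labels' protocols. The submitters' processing notes name Bowtie 0.12.8, bcl2fastq 2.17.1.14 and genome GRCh38.p5; for the counter and annotation the sources used here give no name. The values are FPKM as deposited, 1 table of 14114 genes, with no counts, so depth is an estimate and no count test was run. Genes were matched by Ensembl ID to GENCODE 29 (13951 matched). limma 3.58.1 in R 4.3.3 was fitted to log2(FPKM + 1) of all 24 libraries, with 1 coefficient for each of 12 groups and a variance trend (12 residual and 3.32 prior degrees of freedom). On simulated data for this comparison 200 of 14114 genes were changed, all drawn from genes with mean control levels above 5 FPKM. There 99% of log2 changes of 1 and 96% of 0.5 were recovered with 9 false calls. Simulated noise was independent between libraries, with no shift in scaling and no deviating library. These rates therefore need not hold for the real data or for genes of lower level. The named genes were the 12 largest falls, the 8 largest protein-coding and 6 other rises (called, at least 5 FPKM in the higher arm, treated beyond all controls), the 4 largest differences from both other lines each way, up to 4 members with the smallest adjusted p per list, and BRD2, BRD3, MYC, HEXIM1, MCL1, CDKN1A and CRBN; other list members are named as examples. Of 714 genes in 39 lists 642 were measured. Members, lists and rules were chosen with earlier results of these data known. Alternatives were another pseudocount, a filter at 5 FPKM, 4 scalings, the lines compared alone, each control alone, no variance trend, a replicate block and leaving out each library. The replicates are labelled independent, but nothing names separate cultures or days. The p-values therefore measure the spread between libraries of the same group, pooled over the 12 groups of all 24 libraries. Some items are not reported here.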

Additional observations from a re-analysis of the deposited data

Results flagged for a closer look

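Among 38 named genes, 4 had 1 control library far from the other 3, as judged by its gap over the whole range; chance alone would mark about 1 in 20 groups. For DKK1 the ratio was 0.887, with thalidomide library 1 at 194 FPKM and the other controls at 234 to 240 FPKM. For RPL7P19 it was 0.975, with DMSO library 1 at 0.0962 FPKM and the others near 0.03 FPKM. For CCDC8 (0.941) and CDKN1A (0.859) thalidomide library 2 was the high one, at 5.60 and 37.2 FPKM. In all of these genes every control stayed outside the range of the BETd-246 libraries.

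For 18 of the named genes the change with BETd-246 differed from that in both other lines by limma's test of the difference; the values here are the smaller of the differences, MDA-MB-231 minus the other line, on the log2 scale. Lower in MDA-MB-231 were CD274 (-1.42), RP4-555D20.1 (-1.35), CCDC8 (-1.26), CXCR4 (-1.18), CITED2 (-0.74), PLK2 (-0.54), SGK1 (-0.45), DUSP4 (-0.31) and EDN1 (-0.3). The limit set by the added 1 FPKM, given above, applies to these values too. Higher were U1 (2.4), ID3 (1.67), IER2 (1.4), EGR1 (1.23), JUNB (0.92), the U3 gene on chromosome 17 (0.8), HIST2H4B (0.58), CDKN1A (0.42) and BRD2 (0.38). ID3 and BRD2 fell in every line and fell least in MDA-MB-231. CDKN1A changed by -0.07 in MDA-MB-157 and 0.07 in MDA-MB-468.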

How the results depend on the processing

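Adding 0.1 in place of 1 before the logarithm gave 1083 falls and 126 rises of at least 2-fold. Genes called higher numbered 660 with column totals, 3807 with the upper quartile, 5694 with the median of ratios, 4814 with quantiles, 1358 against DMSO alone and 576 with the MDA-MB-231 libraries fitted alone, which called 4101 genes in all. Genes called lower numbered 3068 with the median of ratios and 2942 with quantiles, which left 306 falls of at least 2-fold. Thalidomide against DMSO gave 1 gene with the line fitted alone. The difference from MDA-MB-157 was called for 2511 genes with quantiles (1314 higher) and 939 with the lines alone (436 higher, 503 lower). Genes lower than in MDA-MB-468 numbered 1185 with quantiles, 421 with the lines alone and 437 against thalidomide alone. The cause was not tested in these cases.

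Leaving out each library in turn gave 995 to 2973 genes higher and 4832 to 8181 called in all; without BETd-246 library 1 it was 995 higher and without library 2 it was 1282. Thalidomide against DMSO ranged from 0 to 3200. The difference from MDA-MB-157 ranged from 999 to 3119 genes (454 to 1461 higher, 503 to 1658 lower) and that from MDA-MB-468 from 1282 to 3258 (874 to 1893 higher, 408 to 1365 lower). Falls of at least 2-fold stayed at 641 to 667 and rises at 57 to 60.

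Among single genes the change turned to 0.0445 for CRBN with the median of ratios and 0.0419 with quantiles, and with quantiles to 0.0476 for BRD3, 0.00 for MT-RNR2, 0.033 for KDR and -0.0041 for CD44. With replicate numbers as a block, 6807 genes were called, 4744 lower and 2063 higher, with 644 and 58 by at least 2-fold. The numbers did not pair the libraries: deviations correlated at 0.124, -0.185 and -0.329 between the treatments. Genes near 0 FPKM are limited by depth, since 1 fragment per kilobase equals 0.0168 to 0.0204 FPKM.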
